A study of Mus musculus with 24 samples.

Results

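The genes described are 39 lysosome and V-ATPase genes, taken by name from the 43346 genes of the deposited count table for mouse gastrocnemius muscle. They comprise 6 subunits of the membrane sector V0 and 8 of the cytosolic sector V1 of the proton pump, 2 accessory pump proteins, 5 lysosomal membrane proteins, 7 cathepsins, 7 other hydrolases, 2 hydrolase cofactors and the 2 transcription factors Tfeb and Tfe3. Libraries came from 4 groups of 6 C57BL6 mice: males given LLC1 cells, males given PBS, females given LLC1 cells and females given PBS. LLC1 cells are a transplantable Lewis lung carcinoma of the mouse, and PBS is the saline vehicle. The subcutaneous injection was made at 7 weeks of age and the muscle was taken 3 weeks later; the labels give no other treatment or allele for any group. Each library has its own title number of 2 parts within its group, such as 1-5. The labels do not say what the 2 parts mean, and mice are named below by this number. The tests below rest on the spread from library to library within groups. All 6 libraries of a group shared 1 sequencing lane that no other group used, so the effects of lane and of group cannot be told apart in any comparison.

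The vacuolar H+-ATPase is a rotary pump: V1 hydrolyses ATP in the cytosol and turns a ring in V0 that carries protons into the lysosome. The acid lumen activates cathepsins and other hydrolases, which break down protein, glycogen, lipid and sugar chains delivered by autophagy and endocytosis. TFEB and TFE3 bind the sequence CACGTG in its extended form, the CLEAR element, upstream of many lysosomal genes. In skeletal muscle the autophagy and lysosome route works beside the ubiquitin and proteasome route in protein breakdown during wasting.

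Among the 32 members with a promoter in the RefSeq table (GRCm38.p6), 13 (40.6%) held CACGTG between 250 bases before and 50 bases after an annotated start, against 8.09% of the 27025 genes in that table. The longer palindrome TCACGTGA, which contains CACGTG, was held by 7 of 32 (21.9%), against 1.12% of all genes. With G before and C after that palindrome, it was held by 0 of 32 members, against 0.37% of all genes. These motifs read the same on both strands, and a gene counts once if any of its windows holds the motif. CACGTG was found in 7 of 12 hydrolases and in 4 of 12 V-ATPase genes with a promoter. The 4 members with TCACGTGA that rose in LLC1 males were Atp6v0d1, Atp6v0e, Atp6v1a and Ctsd, and Gla, which fell, held it at 2 places. The other 2 holders, Mcoln1 and Ctsa, did not pass the test in males. The windows of these 5 genes are printed from 250 bases before the start to 20 bases after it, 5′ to 3′ on the gene's strand, with each CACGTG or TCACGTGA in capitals:
Atp6v0d1 (chr8:105566045-105566314, minus strand): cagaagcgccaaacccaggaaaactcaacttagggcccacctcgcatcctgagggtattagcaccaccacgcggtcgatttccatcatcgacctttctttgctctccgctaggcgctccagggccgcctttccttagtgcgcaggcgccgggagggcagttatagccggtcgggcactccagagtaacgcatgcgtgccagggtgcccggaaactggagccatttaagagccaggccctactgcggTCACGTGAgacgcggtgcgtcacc
Atp6v0e (chr17:26676146-26676415, plus strand): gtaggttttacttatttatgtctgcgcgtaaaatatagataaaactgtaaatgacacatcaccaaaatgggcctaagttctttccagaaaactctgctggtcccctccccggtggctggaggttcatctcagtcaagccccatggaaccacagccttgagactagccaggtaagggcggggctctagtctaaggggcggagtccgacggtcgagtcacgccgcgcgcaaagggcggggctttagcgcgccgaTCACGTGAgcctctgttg
Atp6v1a (chr16:44139240-44139509, minus strand): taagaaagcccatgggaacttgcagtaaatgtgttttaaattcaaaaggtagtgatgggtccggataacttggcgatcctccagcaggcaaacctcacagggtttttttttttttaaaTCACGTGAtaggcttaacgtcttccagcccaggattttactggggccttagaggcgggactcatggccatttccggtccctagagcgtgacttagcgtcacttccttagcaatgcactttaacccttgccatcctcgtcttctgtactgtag
Ctsd (chr7:142387808-142388077, minus strand): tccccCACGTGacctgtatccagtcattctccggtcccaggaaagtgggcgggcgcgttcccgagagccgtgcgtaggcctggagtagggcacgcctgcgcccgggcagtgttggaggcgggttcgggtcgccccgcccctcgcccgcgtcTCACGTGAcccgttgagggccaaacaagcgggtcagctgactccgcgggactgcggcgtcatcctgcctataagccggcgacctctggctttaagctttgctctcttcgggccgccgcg
Gla (chrX:134600986-134601255, minus strand): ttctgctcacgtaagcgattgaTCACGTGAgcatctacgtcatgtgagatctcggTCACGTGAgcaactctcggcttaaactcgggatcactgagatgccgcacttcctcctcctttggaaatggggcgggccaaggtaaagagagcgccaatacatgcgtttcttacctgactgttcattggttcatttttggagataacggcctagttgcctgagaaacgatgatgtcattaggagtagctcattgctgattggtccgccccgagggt

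TCACGTGA began 4 bases before the start in Atp6v0d1, at the third transcribed base in Atp6v0e, 132 bases before the start in Atp6v1a and 99 bases before it in Ctsd. In Gla the copies began 228 and 195 bases before the start. These distances are from the RefSeq start. The deposited coordinates place the upstream end of Atp6v1a at base 44139705 and that of Ctsd at base 142388038. By those coordinates the TCACGTGA of Atp6v1a and of Ctsd lies inside the gene. Lamp1, which held the most copies of CACGTG among these promoters, had 4 within the last 61 bases before its start: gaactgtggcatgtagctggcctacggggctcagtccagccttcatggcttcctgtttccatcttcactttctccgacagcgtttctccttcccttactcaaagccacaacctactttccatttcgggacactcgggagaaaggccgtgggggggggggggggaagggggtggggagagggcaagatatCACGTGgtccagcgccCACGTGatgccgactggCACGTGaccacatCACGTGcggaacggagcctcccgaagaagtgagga (chr8:13158911-13159180, plus strand). CACGTG was present in 6 of 12 members that rose in LLC1 males and had a promoter, and in 7 of 20 that did not rise. Atp6v1c1, Atp6v1h, Atp6v1b2, Atp6v1g1, Ctsh, Ctsb and Npc1 had no entry. A match is a description of the letters, not a measured binding site.

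All 39 members passed the filter on low counts, among 17773 genes tested. Library totals ran from 26179971 to 47356612 counts. Gene levels are given as CPM, counts scaled to a common library total after TMM normalisation. The 10 muscle fibre markers summed to at least 136500 CPM in every library. In whole muscle, fewer cells of a type and less RNA per cell cannot be told apart.

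In vehicle mice the members spanned a wide range of levels per length, as the plot of levels per kilobase shows. Within V1, the peripheral stalk subunit Atp6v1g1 was at 93.9 ± 7.07 CPM per kb in male PBS mice and 115 ± 14.8 in female PBS mice (SD, n = 6 each), and the regulatory subunit Atp6v1h at 1.69 ± 0.0980 and 1.67 ± 0.143. The catalytic subunit Atp6v1a stood at 4.70 ± 0.306 CPM per kb in male and 4.75 ± 0.638 in female PBS mice, and its partner Atp6v1b2 at 10.1 ± 0.252 and 11.5 ± 0.429. V0 subunits lay closer together, between Atp6v0e at 4.51 ± 0.390 and the ring subunit Atp6v0b at 22.4 ± 0.549 CPM per kb in male PBS mice. The members with the most RNA per length were Psap, the precursor of the saposins, at 262 ± 7.23 and 241 ± 18.4 CPM per kb in male and female PBS mice, the aspartic protease Ctsd at 225 ± 14.6 and 198 ± 10.2, and Lamp1, a major membrane glycoprotein, at 171 ± 9.76 and 170.4 ± 4.18. Gla, alpha-galactosidase A, was lowest at 1.14 ± 0.136 and 1.08 ± 0.0732, with Tfe3 beside it at 1.14 ± 0.106 and 1.15 ± 0.0855. Levels per length rest on the deposited gene lengths, among which Atp6v1h is listed with 9746 bases. The exon union of GENCODE M21 exceeded the deposited length by over 20% for 13 of 39 members, with 6489 against 1971 bases for Ctsl and 4110 against 1203 bases for Atp6v1e1. Such genes would read lower per kb with the M21 lengths.

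**Figure D1:**
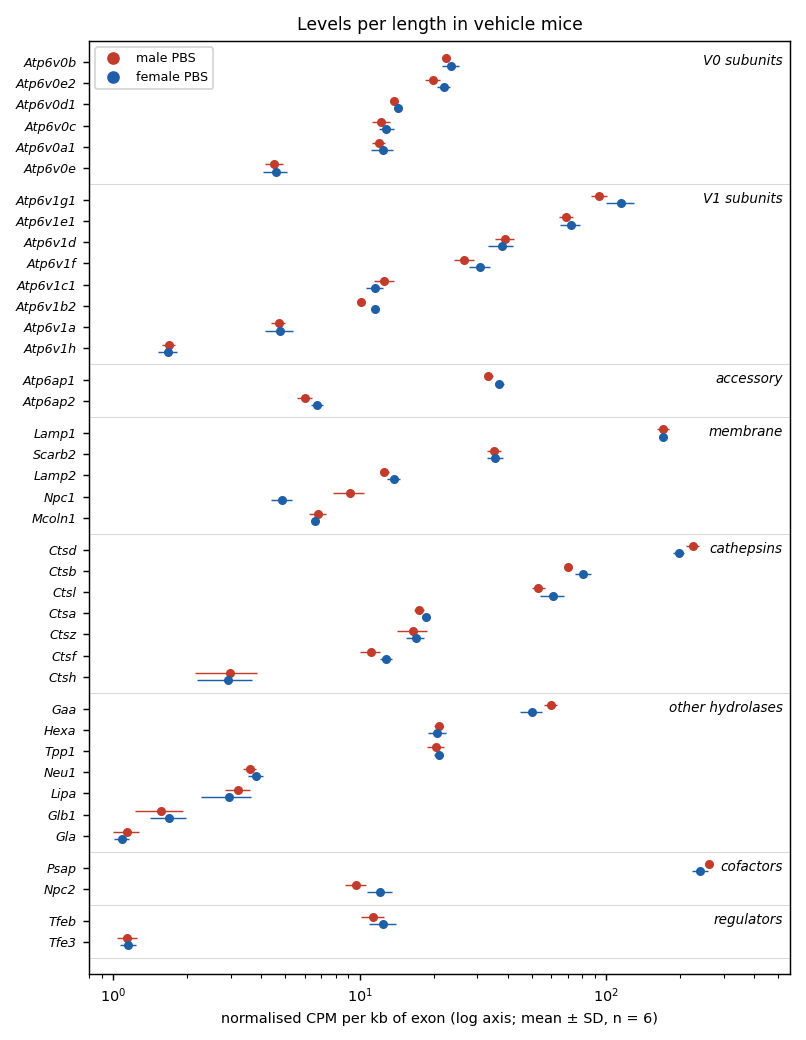
Levels per length of the 39 genes in vehicle mice, in normalised CPM per kb on a log axis, as mean ± SD over 6 mice, male PBS above female PBS in each row and genes grouped by role. Psap, Ctsd and Lamp1 lie furthest right, and Gla and Tfe3 furthest left.

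Pump subunits with other gene copies are given beside those copies, as mean levels per length. Atp6v0a1, which forms the proton path together with the ring, averaged 11.96 ± 0.675 CPM per kb in male PBS mice, against 10.5 ± 0.413 for Atp6v0a2, 2.07 ± 0.401 for the osteoclast form Tcirg1 and 0.251 ± 0.0986 for the kidney form Atp6v0a4. Atp6v1g2 was at 0.729 ± 0.0932 CPM per kb. Atp6v0d2, Atp6v1b1 and Atp6v1c2 had 87, 43 and 74 counts over all 24 libraries and were not tested. Atp6v1e2 and Atp6v1g3 had 0 counts, which allows a level of up to 0.00343 CPM over all libraries together (3 counts, counting error only). None of the 5 copies and associated genes that were tested, Rnasek among them, passed the test for LLC1 in either sex.

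In males, 15 of the 39 members rose with LLC1 and 2 fell at an adjusted p under 0.05 (edgeR's quasi-likelihood test with Benjamini-Hochberg adjustment over all genes), against 19.5% of all genes tested that rose and 16.8% that fell. The members' shares were 38.5% that rose and 5.13% that fell. In both directions together, 43.6% of members passed, against 36.3% of all genes, which is near the background; the median log2 change was 0.15 for the members and 0.01 for all genes. In females, 3 members rose and 2 fell, which is 7.69% and 5.13%, against 4.97% and 4.95% of all genes; both directions together came to 12.8% of members and 9.92% of all genes. The median log2 change in females was -0.01 for the members and -0.01 for all genes. The plot of fold changes shows both sexes for every member.

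**Figure D2:**
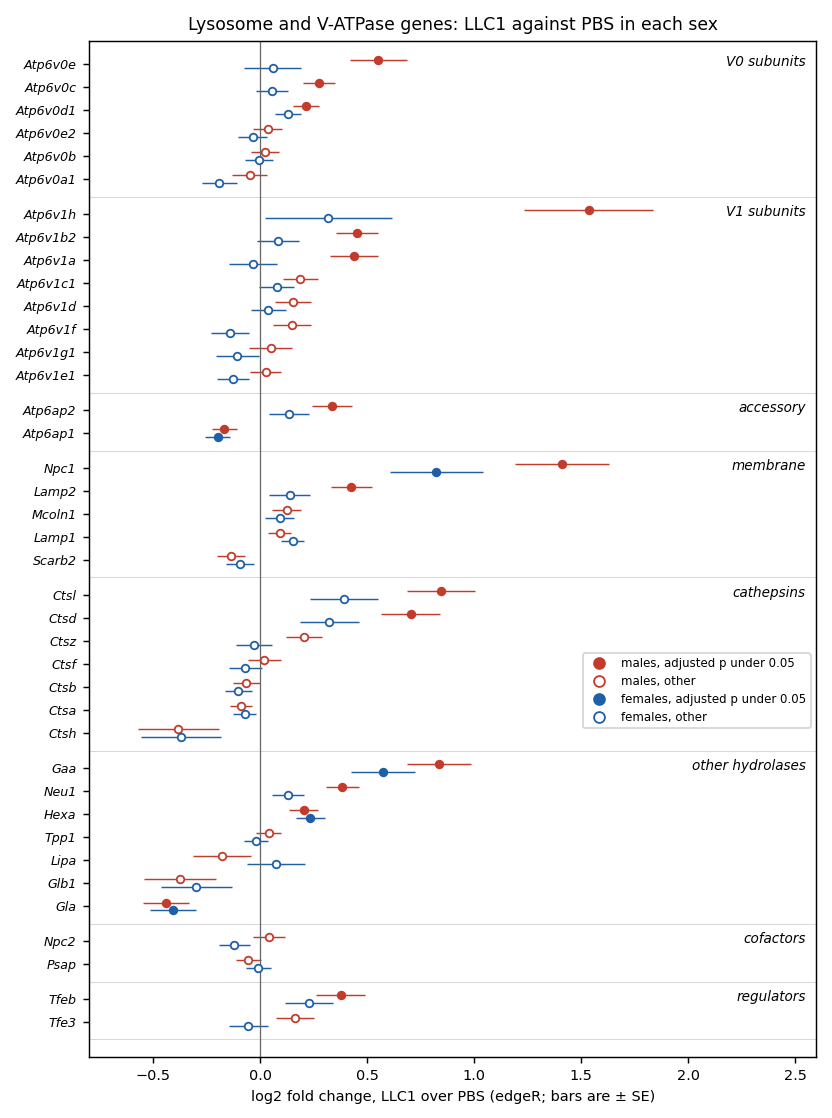
Log2 fold change of LLC1 over PBS in males (red, upper of each pair) and females (blue), with bars of ± SE from edgeR, for the 39 genes grouped by role; filled points have an adjusted p under 0.05. Atp6v1h at 1.54 and Npc1 at 1.41 lead in males, and Gla lies below 0 in both sexes.

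Of the 16 V-ATPase members, 7 rose and 1 fell in males, with a median log2 change of 0.17 and 14 of 16 positive. That is 50% called in either direction, against 36.3% of all genes, of which 50.6% had a positive change. By direction, 43.8% of the V-ATPase members rose and 6.25% fell in males, against 19.5% and 16.8% of all genes. In females 0 rose and 1 fell, or 6.25% against 9.92% of all genes, with a median of 0.02 and 8 of 16 positive, against 49% of all genes. The first of these, Atp6v1h, encodes subunit H, which couples ATP use to proton transport. Atp6v1h was at 22.2, 96.8, 78.7, 16.8, 49.4 and 21.8 CPM in the LLC1 males 1-4, 1-5, 2-1, 2-2, 2-4 and 2-5, against 14.96, 16.3 and 17.6 CPM as lowest, median and highest in PBS males. Mice 1-5, 2-1 and 2-4 stood far above every PBS male, and mouse 2-2 lay inside the PBS range. The log2 change was 1.54 ± 0.30 (SE), a fold of 2.90, with an adjusted p of 0.000675 by edgeR. In females Atp6v1h was at 18.2, 20.6 and 21.1 CPM in LLC1 mice, against 15.3, 15.6 and 18.9 CPM in PBS mice. The female groups overlapped by 1 LLC1 mouse and 1 PBS mouse, and the log2 change of 0.32 ± 0.30 did not pass (adjusted p = 0.545, edgeR with the spread shared over all 4 groups). It passed in a fit of the 2 female groups alone.

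The A and B subunits form the ATP-binding head of V1. Atp6v1a, the catalytic A subunit, was at 29.98, 36.9 and 49.6 CPM as lowest, median and highest in LLC1 males, against 26.2, 28.6 and 30.2 CPM in PBS males, and 5 of 6 LLC1 males exceeded every PBS male. Its log2 change was 0.44 ± 0.11 (adjusted p = 0.00413, edgeR). Atp6v1b2, the B subunit, was at 55.9, 69.8 and 103 CPM in LLC1 males, against 52.2, 53.4 and 55.8 CPM in PBS males. Every LLC1 male lay above every PBS male, by a small margin for mouse 2-2, and the log2 change was 0.45 ± 0.10 (adjusted p = 0.00118, edgeR). In females Atp6v1a was at 22.9, 28.1 and 32.8 CPM in LLC1 mice, against 23.4, 28.8 and 34.5 CPM in PBS mice, and Atp6v1b2 at 61.1, 64.6 and 67.6 CPM in LLC1 mice, against 57.97, 61.04 and 64.9 CPM in PBS mice. Both genes overlapped between the female groups, with log2 changes of -0.03 ± 0.11 and 0.08 ± 0.10. The remaining V1 subunits were smaller in change: Atp6v1c1, Atp6v1d, Atp6v1f, Atp6v1g1 and Atp6v1e1 had log2 values between 0.02 and 0.19 in males and none passed. Atp6v1e1, a peripheral stalk subunit, had the smallest value, at 78.98, 80.96 and 96.03 CPM in LLC1 males and 75.3, 82.99 and 90.7 CPM in PBS males.

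In V0, 3 of 6 subunits rose in males. Atp6v0e, a small membrane subunit, was at 15.4, 20.1 and 33.8 CPM in LLC1 males, against 12.8, 14.7 and 16.2 CPM in PBS males, and the groups overlapped through mice 2-2 and 2-5. Its log2 change was 0.55 ± 0.13 (adjusted p = 0.00274, edgeR), and its copy Atp6v0e2 had 0.03 ± 0.07 (adjusted p = 0.727). The ring subunit Atp6v0c was at 42.2, 51.1 and 57.3 CPM in LLC1 males, against 37.6, 40.9 and 47.3 CPM in PBS males, with a log2 change of 0.27 ± 0.08 (adjusted p = 0.00692, edgeR). Atp6v0d1, which caps the ring, was at 24.2, 29.97 and 31.1 CPM in LLC1 males, against 23.4, 24.7 and 25.9 CPM in PBS males, with a log2 change of 0.21 ± 0.06 (adjusted p = 0.00822, edgeR). The groups of Atp6v0c and of Atp6v0d1 overlapped in the low LLC1 mice. The other ring subunit Atp6v0b, at 0.02 ± 0.07, and Atp6v0a1, at -0.05 ± 0.08, did not pass. The female log2 values of the 6 V0 subunits ran from -0.19 to 0.13.

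The 2 accessory proteins, both needed for pump assembly, went opposite ways in males. Atp6ap2, also known as the prorenin receptor, was at 16.1, 19.1 and 24.4 CPM in LLC1 males, against 14.3, 15.6 and 17.6 CPM in PBS males (log2 change 0.33 ± 0.09, adjusted p = 0.00695 by edgeR). Atp6ap1 was at 83.6, 88.3 and 96.7 CPM in LLC1 males, against 93.7, 101 and 107 CPM in PBS males, and at 88.1, 96.4 and 110.5 CPM in LLC1 females, against 106, 111 and 118 CPM in PBS females. It fell by 0.17 on the log2 scale in males and by 0.20 in females (adjusted p = 0.0257 and 0.0317, edgeR), with overlapping groups in both sexes. The male call was lost without LLC1 male 1-5, LLC1 male 2-4 or PBS male 1-2 (adjusted p = 0.0553, 0.0591 and 0.0596). The female call was lost without any of the 6 PBS females, without LLC1 female 1-4, 1-5 or 2-3, or without LLC1 male 2-1 or PBS male 1-3 from the shared spread, with adjusted p of 0.051 to 0.135.

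**Figure D3:**
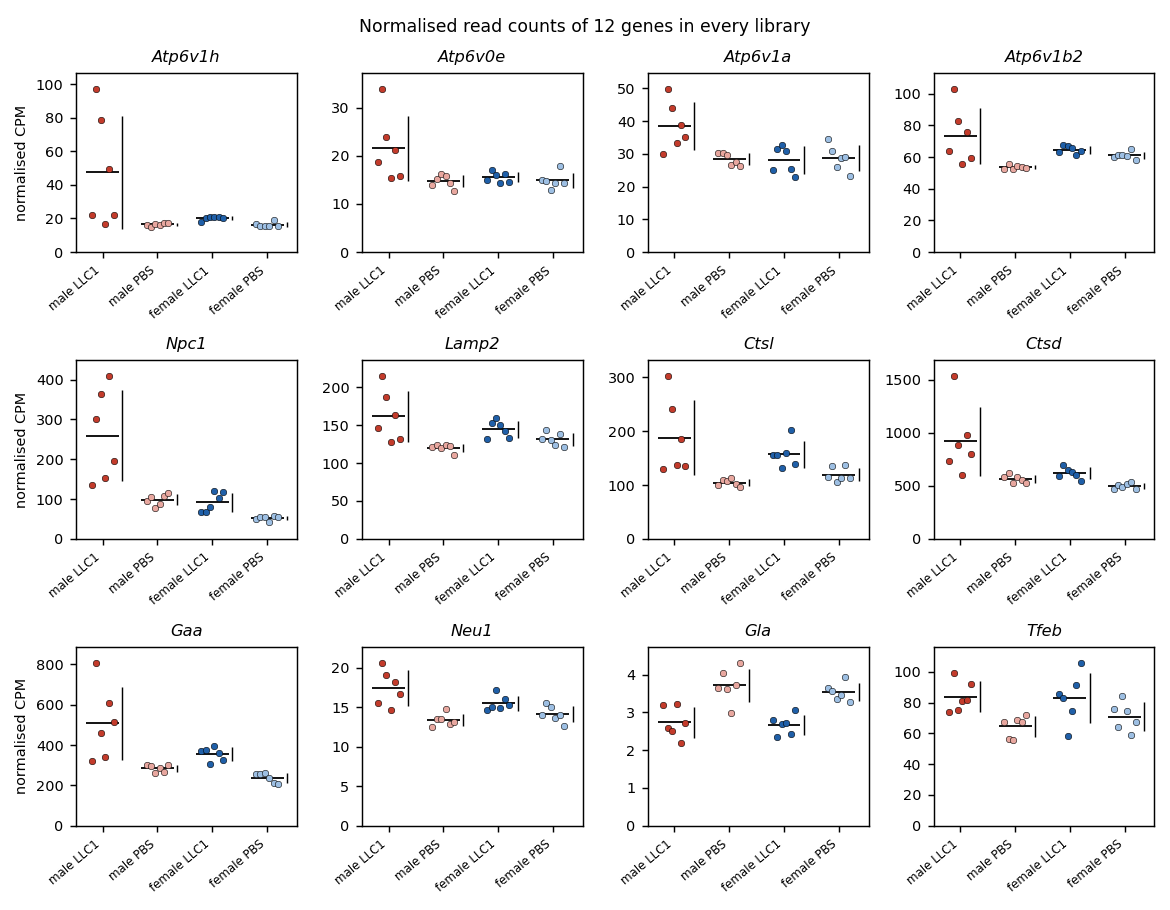
Normalised CPM of 12 genes in every library, in male LLC1, male PBS, female LLC1 and female PBS mice from left to right; each point is a mouse, the horizontal bar is the mean and the vertical bar is ± SD (n = 6). Atp6v1h reached 96.8 CPM in 1 LLC1 male, and Gla was lower in both LLC1 groups than in the PBS groups.

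Of the 14 hydrolases, 5 rose and 1 fell in males, with a median log2 change of 0.03. Called in either direction were 42.9%, near the 36.3% of all genes. By direction, 35.7% of the hydrolases rose and 7.14% fell in males, against 19.5% and 16.8% of all genes. In females 2 rose and 1 fell, with a median of -0.02, or 21.4% called against 9.92% of all genes. Ctsl, a cysteine protease, was at 129, 161 and 302 CPM in LLC1 males, against 96.2, 105 and 113 CPM in PBS males. No LLC1 male overlapped the PBS males, and the log2 change was 0.85 ± 0.16 (adjusted p = 0.000443, edgeR). Ctsd was at 731, 1534, 885, 599, 978 and 805 CPM in LLC1 males 1-4, 1-5, 2-1, 2-2, 2-4 and 2-5, against 526, 570.2 and 622 CPM as lowest, median and highest in PBS males. Mouse 2-2 lay within the PBS range and mouse 1-5 above all others (log2 change 0.70 ± 0.14, adjusted p = 0.000589 by edgeR). In females Ctsl was at 131, 155 and 203 CPM in LLC1 mice and 105, 114 and 136 CPM in PBS mice, and Ctsd at 546, 621 and 699 CPM in LLC1 mice, against 467, 500.4 and 533 CPM in PBS mice. The female groups of Ctsd did not overlap and those of Ctsl overlapped slightly, but neither passed the edgeR test, with log2 changes of 0.39 ± 0.16 (adjusted p = 0.117) and 0.32 ± 0.14 (adjusted p = 0.139). Both passed in females without LLC1 male 1-5, whose values enter the shared spread, and in a fit of the 2 female groups alone. The other 5 cathepsins did not pass in males: Ctsz at 0.21 ± 0.08, Ctsf at 0.02 ± 0.08, Ctsb at -0.07 ± 0.06, Ctsa at -0.09 ± 0.05 and Ctsh at -0.38 ± 0.19 on the log2 scale.

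Gaa, the acid alpha-glucosidase that degrades lysosomal glycogen, rose in both sexes. It was at 322, 488 and 806 CPM in LLC1 males, against 262, 291 and 301 CPM in PBS males, and at 306, 366 and 395 CPM in LLC1 females, against 208, 245 and 263 CPM in PBS females. The groups did not overlap in either sex, and the log2 changes were 0.83 ± 0.15 in males (adjusted p = 0.000274) and 0.57 ± 0.15 in females (adjusted p = 0.0162), by edgeR. Gla fell in both sexes, at 2.20, 2.65 and 3.21 CPM in LLC1 males, against 2.99, 3.68 and 4.30 CPM in PBS males, and 2.34, 2.70 and 3.06 CPM in LLC1 females, against 3.27, 3.51 and 3.95 CPM in PBS females. The male groups overlapped and the female groups did not (log2 change -0.44 ± 0.11, adjusted p = 0.00282 in males; -0.41 ± 0.11, adjusted p = 0.0158 in females; edgeR). The female call of Gla was lost without LLC1 female 1-5 or PBS female 2-2 (adjusted p = 0.0557 and 0.0536).

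The sialidase Neu1 was at 14.6, 17.5 and 20.6 CPM in LLC1 males, against 12.5, 13.3 and 14.7 CPM in PBS males, overlapping by a narrow margin, with a log2 change of 0.38 ± 0.08 (adjusted p = 0.000601, edgeR). Hexa, the alpha subunit of beta-hexosaminidase, was at 39.98, 43.6 and 51.4 CPM in LLC1 males, against 37.3, 38.97 and 41.4 CPM in PBS males, and 40.8, 46.2 and 48.1 CPM in LLC1 females, against 35.9, 36.99 and 44.2 CPM in PBS females. Its log2 changes were 0.20 ± 0.07 and 0.23 ± 0.07 (adjusted p = 0.023 and 0.0308, edgeR), with overlapping groups. The male call of Hexa was lost without LLC1 male 2-4 or 2-5 (adjusted p = 0.0761 and 0.0598), and the female call without LLC1 female 2-3 or PBS female 1-4 (adjusted p = 0.0521 and 0.0637). The beta-galactosidase Glb1, the acid lipase Lipa and the peptidase Tpp1 had male log2 changes of -0.38 ± 0.17, -0.18 ± 0.13 and 0.04 ± 0.06 and did not pass. The cofactors Psap and Npc2 did not pass either, at -0.06 ± 0.06 and 0.04 ± 0.07.

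Summed per length, the 14 hydrolases came to 555 to 1105 CPM per kb in LLC1 males, with a median of 699.6, against 481.6 to 533.6 in PBS males, with a median of 504.8. The 16 V-ATPase genes summed to 386 to 442 CPM per kb in LLC1 males, with a median of 406, against 355 to 407 in PBS males, with a median of 381. The hydrolase sums did not overlap between the male groups and the V-ATPase sums did, and the same held in females. In females the hydrolase sum was 535 to 624 CPM per kb in LLC1 mice, against 455 to 522 in PBS mice, and the V-ATPase sum was 363 to 455 CPM per kb in LLC1 mice, against 379.6 to 451 in PBS mice. Without Ctsd, the hydrolase sum was 302 to 496 CPM per kb in LLC1 males and 273 to 291 in PBS males. In females the sum without Ctsd was 308.6 to 359.8 CPM per kb in LLC1 mice and 269.3 to 320.6 in PBS mice. Those female groups overlapped, so their separation by the full hydrolase sum rested on Ctsd, which did not pass in females.

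The V-ATPase sum divided by the hydrolase sum was 0.578 ± 0.118 in LLC1 males, against 0.753 ± 0.0202 in PBS males, and 0.691 ± 0.0877 in LLC1 females, against 0.853 ± 0.0845 in PBS females (SD, n = 6 each). The highest LLC1 male and the lowest PBS male were both at 0.718, and 1 LLC1 female, mouse 2-5 at 0.851, lay well inside the PBS range. Without division by length the ratio was 0.301 to 0.458 in LLC1 males and 0.4661 to 0.4985 in PBS males. An average that weights every gene alike gave another order in males: the mean log2 CPM of the V-ATPase genes minus that of the hydrolases was 0.108 ± 0.105 in LLC1 males, against -0.00662 ± 0.0791 in PBS males. In females it was 0.0247 ± 0.115 in LLC1 mice, against 0.0551 ± 0.136 in PBS mice, the same order as the ratio of the sums. The sums weight genes by abundance. By the deposited lengths, Ctsd, Gaa and Ctsl, which all rose in males, were among the 4 most abundant hydrolases in PBS males. The largest parts of the V-ATPase sum there were Atp6v1g1, Atp6v1e1 and Atp6v1d, at 93.9, 69.0 and 38.9 CPM per kb, and none passed in males. The deposited lengths of Atp6v1e1 and Atp6v1d, 1203 and 1403 bases, are shorter than the M21 exon unions of 4110 and 4602 bases. These scores carry no test, since the members were chosen with earlier results known.

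**Figure D4:**
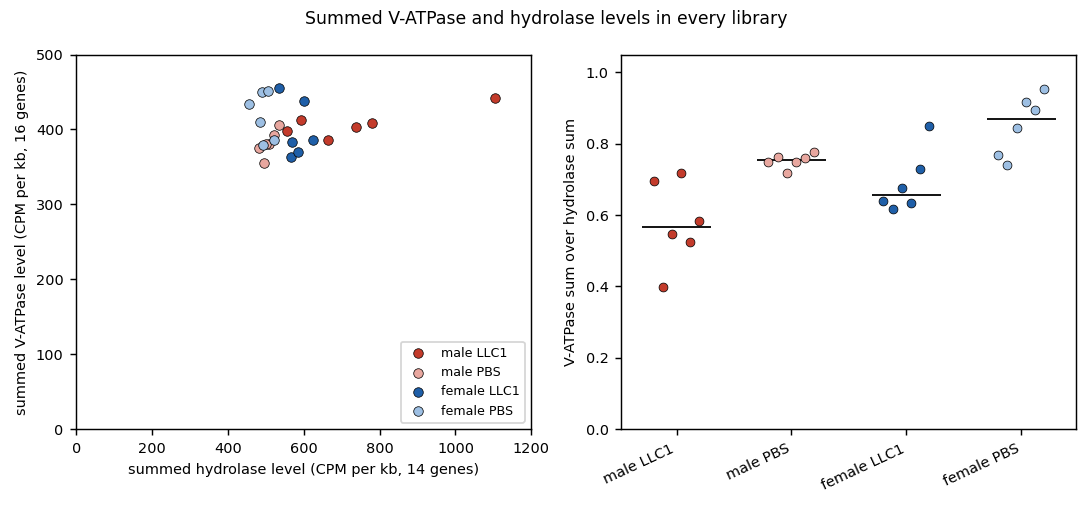
Left, summed V-ATPase level (16 genes) against summed hydrolase level (14 genes) in normalised CPM per kb, each point a library; right, the ratio of the sums by group, with the median as a bar. LLC1 males extend right to 1105 CPM per kb of hydrolases, with ratios from 0.400 to 0.718, against 0.718 to 0.778 in PBS males.

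Of the 5 lysosomal membrane proteins, Npc1, which moves cholesterol out of the lysosome, rose in both sexes. Npc1 was at 134, 302, 363, 153, 408 and 196 CPM in LLC1 males 1-4, 1-5, 2-1, 2-2, 2-4 and 2-5, against 77.2, 99.7 and 114 CPM as lowest, median and highest in PBS males. In females it was at 67.9, 90.4 and 119.6 CPM in LLC1 mice, against 43.2, 54.3 and 56.7 CPM in PBS mice. Every LLC1 mouse lay above every PBS mouse of its sex, and every PBS male above every PBS female. The log2 changes were 1.41 ± 0.22 in males (adjusted p = 8.82e-05) and 0.82 ± 0.22 in females (adjusted p = 0.0186), by edgeR. The female call was lost without LLC1 female 2-3 (log2 change 0.76, adjusted p = 0.0521). Lamp2, a membrane glycoprotein needed for autophagosome fusion, was at 128, 154 and 214 CPM in LLC1 males, against 110.2, 122 and 124 CPM in PBS males, without overlap (log2 change 0.43 ± 0.10, adjusted p = 0.00163, edgeR). Its log2 change in females was 0.14 ± 0.10 and did not pass.

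Lamp1 had male values of 384, 410.5 and 436 CPM in LLC1 mice, against 343, 392 and 403 CPM in PBS mice, with a log2 change of 0.09 ± 0.05 that did not pass. In females Lamp1 was at 413, 427 and 439.9 CPM in LLC1 mice, against 370.4, 384 and 397 CPM in PBS mice. These female groups did not overlap, but the log2 change of 0.15 ± 0.05 missed the threshold in edgeR (adjusted p = 0.0722). Lamp1 passed in females with DESeq2 and in a fit of the 2 female groups alone. It also passed there without LLC1 male 1-5 or PBS male 1-3, whose values enter the shared spread. The calcium channel Mcoln1 and Scarb2, a lysosomal membrane protein, had male log2 changes of 0.12 ± 0.07 and -0.14 ± 0.07 and did not pass. Over all 39 members, LLC1 values lay entirely above PBS values for 6 in males (Atp6v1b2, Lamp2, Npc1, Ctsl, Gaa and Tfeb), against 4.96% of all genes, and for no member entirely below, against 5.34%. In females this held for 4 (Lamp1, Npc1, Ctsd and Gaa), against 4.05% of all genes, and LLC1 lay entirely below PBS for Gla, against 2.5% of all genes.

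The transcription factor Tfeb rose in males and its relative Tfe3 did not pass. Tfeb was at 73.6, 81.4 and 99.2 CPM in LLC1 males, against 55.6, 67.4 and 71.8 CPM in PBS males, with no overlap and a log2 change of 0.38 ± 0.11 (adjusted p = 0.0127, edgeR). In females it was at 57.95, 84.3 and 106 CPM in LLC1 mice, against 58.8, 71.00 and 84.3 CPM in PBS mice. The female groups overlapped widely, and the log2 change of 0.23 ± 0.11 did not pass (adjusted p = 0.211). Tfe3 was at 9.86, 11.2 and 14.9 CPM in LLC1 males, against 9.28, 10.5 and 11.97 CPM in PBS males (log2 change 0.16 ± 0.09, adjusted p = 0.165, edgeR). These are RNA levels, and the location of the proteins in the cell was not measured.

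Within LLC1 males the mice differed widely, and the same mice led in many members. The coefficient of variation of Atp6v1h was 70.6% in LLC1 males, the highest of the members; the median over members was 10.5% in LLC1 males, against 7% in PBS males, and 8.4% in LLC1 females, against 8.01% in PBS females. Of the 15 members that rose in males, mouse 1-5 had the highest value in 12, and mice 1-5, 2-1 and 2-4 were the top 3 in 9. How often these mice led among all genes that rose was not counted, so this order is not shown to be particular to the members. Over all genes, 4984 were called in males without mouse 1-5, against 6449 with it. Mouse 2-2 had 16.8 CPM of Atp6v1h, 599 of Ctsd and 15.4 of Atp6v0e, all inside the PBS male range. It lay above every PBS male for Npc1, Gaa, Ctsl, Lamp2, Tfeb and Atp6v1b2. For Npc1, Gaa, Ctsl and Tfeb the lowest LLC1 male was mouse 1-4. The muscle ubiquitin ligases Fbxo32 and Trim63, looked up after these values were seen, had the same 3 leaders: Fbxo32 was at 3971, 2331 and 3487 CPM in mice 1-5, 2-1 and 2-4, and at 977, 909 and 2286 CPM in mice 1-4, 2-2 and 2-5, against 291 to 517 CPM in PBS males. Trim63 was at 2756, 2373 and 2675 CPM in mice 1-5, 2-1 and 2-4, and at 646, 457 and 1182 CPM in mice 1-4, 2-2 and 2-5, against 163 to 281 CPM in PBS males. Without mouse 1-5 every member that rose in males stayed past the threshold, with Atp6v1h at a log2 change of 1.20 and Ctsd at 0.50.

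**Figure D5:**
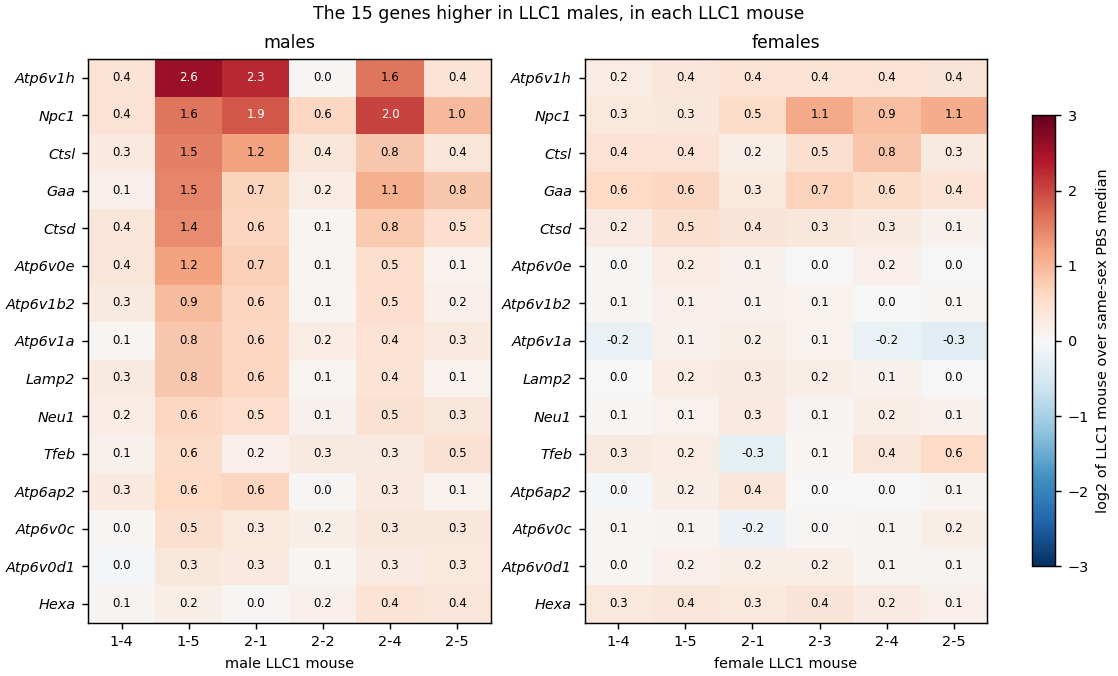
Log2 of each LLC1 mouse over the median of the PBS mice of its sex, for the 15 genes that rose in LLC1 males, in males (left) and females (right), with mice in columns. Male mice 1-5, 2-1 and 2-4 are darkest, and the female columns are paler.

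The difference between the sexes in the LLC1 response was tested directly as an interaction, male change minus female change. It was called for 0 of 39 members and 0 of all genes (0%) by edgeR, with 2191 genes (12.3%) at an unadjusted p under 0.05, 0 calls by limma-voom and 45 by DESeq2, none of them a member. The interaction estimate was positive for 16 of 16 V-ATPase genes, with a median of 0.15 on the log2 scale, for 8 of 14 hydrolases, with a median of 0.05, and for 52.3% of all genes, with a median of 0.02. At an unadjusted p under 0.05 there were 8 members (20.5%), namely Atp6v0c, Atp6v0e, Atp6v1a, Atp6v1b2, Atp6v1f, Atp6v1h, Lamp2 and Neu1, all positive. Over all genes, 1361 of the 2191 at that level were positive too. The lowest adjusted p among the members was 0.285, so the calls in males that were absent in females are not shown to differ between the sexes. For Atp6v1h the interaction was 1.22 ± 0.42 and for Npc1 0.59 ± 0.31.

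Between the sexes in vehicle mice, male against female, 1 member was higher and 1 lower by edgeR, against 3.28% and 2.95% of all genes (5.13% of members and 6.23% of all genes in both directions together). Npc1 was at 77.2, 99.7 and 114 CPM in PBS males, against 43.2, 54.3 and 56.7 CPM in PBS females, a log2 difference of 0.91 ± 0.22 (adjusted p = 0.0142), with no overlap, as for 2.49% of all genes. Npc2, the soluble partner of Npc1 in cholesterol export, was at 28.4, 30.8 and 36.9 CPM in PBS males, against 34.3, 39.9 and 47.3 CPM in PBS females, with overlap and a log2 difference of -0.33 ± 0.07 (adjusted p = 0.00839). The 2 partners had opposite signs. Atp6v1b2 lay entirely lower in PBS males, as did 1.82% of all genes, at 52.2, 53.4 and 55.8 CPM in PBS males and 57.97, 61.04 and 64.9 CPM in PBS females, but did not pass (adjusted p = 0.284, edgeR). Atp6v1b2 passed in a fit of the 2 vehicle groups alone, as did Atp6v1g1 and Gaa. The pump copy Atp6v0a2 was higher in males by 0.23 ± 0.07 (adjusted p = 0.0348).

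A list of 54 further lysosomal genes, none among the 39, had 8 that rose and 12 that fell in males, with a median log2 change of -0.04, and 1 that rose and 2 that fell in females. The shares called, 37% in males and 5.56% in females, were near or under the 36.3% and 9.92% of all genes, so the counts do not set the list apart. The rises in males included the membrane protein Cd63 (0.49 ± 0.09, adjusted p = 0.000466) and the cystine exporter Ctns (0.39 ± 0.08, adjusted p = 0.000886), by edgeR on the log2 scale. Among the falls, the collagen-degrading cathepsin Ctsk had -0.92 ± 0.28 (adjusted p = 0.0148), the sulfatase Arsb -0.67 ± 0.17 (adjusted p = 0.00468) and the sulfamidase Sgsh -0.55 ± 0.12 (adjusted p = 0.00113). In females Cd63 rose (0.42 ± 0.09, adjusted p = 0.00618), and Ostm1, a partner of a lysosomal chloride transporter, and the amidase Aga fell (-0.34 ± 0.07 and -0.37 ± 0.10; adjusted p = 0.00449 and 0.0235). Ostm1 also fell in males, to 14.6, 18.2 and 21.1 CPM in LLC1 mice, against 23.1, 23.6 and 26.6 CPM in PBS mice, without overlap.

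Another list of 15 genes covered mTORC1 and related routes that control TFEB and TFE3, and also held Mitf and Zkscan3. Of these 15 genes, 4 rose and 2 fell in males and none passed in females. The 40% called in males is near the 36.3% of all genes. Flcn, the folliculin GTPase activator, was at 73.7, 94.5 and 106 CPM in LLC1 males, against 53.9, 69.4 and 77.2 CPM in PBS males (log2 change 0.47 ± 0.10, adjusted p = 0.0016, edgeR), with overlapping groups. Lamtor3 of the Ragulator complex, the TFEB relative Mitf and the repressor Zkscan3 rose by 0.40, 0.29 and 0.28, while the GTPase Rragd and the folliculin partner Fnip1 fell by 0.44 and 0.32 on the log2 scale.

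Lysosomal genes are also expressed by macrophages and by other cells of the muscle. The 14 macrophage and monocyte markers summed to 288 to 367 CPM in LLC1 males, against 223 to 368 CPM in PBS males, and to 167 to 414 CPM in LLC1 females, against 182 to 406 CPM in PBS females. Of the 14, Mpeg1 and Cd14 rose in males (log2 changes 0.84 and 0.68; adjusted p = 0.0019 and 0.00742, edgeR), and none passed in females. Defining markers such as Adgre1, Csf1r and Cd68 were present and did not pass in either sex. The 12 neutrophil markers summed to 60.6 to 173 CPM in LLC1 males, against 1.34 to 3.74 CPM in PBS males, and to 61.3 to 166 CPM in LLC1 females, against 1.90 to 3.33 CPM in PBS females; all 10 that were tested rose in both sexes. Of 8 markers of fibro-adipogenic cells, 6 fell and Ly6a rose in males, and 3 fell and Ly6a rose in females; they summed to 949 to 1133 CPM in LLC1 males, against 1405 to 2461 CPM in PBS males, and to 679 to 1390 CPM in LLC1 females, against 1045 to 2098 CPM in PBS females. Of 10 muscle fibre markers, Myh1, Pvalb and Mylpf fell in males, and Pvalb and Mylpf fell in females. They summed to 136500 to 199300 CPM in LLC1 males, with a median of 171000, against 169400 to 214900 CPM in PBS males, with a median of 205200. In females the sum was 139400 to 203600 CPM in LLC1 mice, against 166100 to 201600 CPM in PBS mice. The lowest fibre sum of all was that of LLC1 male 1-5, which led in 12 of the 15 members that rose in males. In LLC1 males 1-4, 2-1, 2-2, 2-4 and 2-5 the fibre sum was 162300, 158900, 199300, 186300 and 179600 CPM. The leading mouse 2-4 thus lay above mice 1-4 and 2-5. Mouse 1-5 also had the lowest macrophage and monocyte sum of the LLC1 males, at 287.7 CPM. The part of these cell types in the changes of the lysosomal genes was not tested.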

How the data were processed

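Poly(A) RNA of gastrocnemius muscle was sequenced from 24 mice in 4 groups of 6. The deposited table holds raw read counts per gene and a gene length in bases; the submitters' processing notes name CASAVA, STAR and featureCounts with build mm10. Per the labels' protocols the libraries were TruSeq RNA v2 with 12 PCR cycles. Tool versions, the annotation release and the handling of multi-mapped reads were not stated in the sources used here. The kit does not mark strand, so reads of overlapping genes on either strand cannot be told apart; 0 of 39 members shared at least 10% of their exon length with a gene of at least 0.5 times their counts, but 34.4% of the GENCODE M21 exons of Ctsd lie under Gm49369 on the same strand and 26.9% of those of Ctsl under Gm47123 on the other; the table lists neither gene. The mitochondrial genes had 0 counts in the deposited table.

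Genes were filtered with filterByExpr, scaled by TMM and tested with edgeR 4.0.16 (R 4.3.3; quasi-likelihood F-test, robust) in 1 model of 4 groups with 20 residual degrees of freedom; adjusted p-values (Benjamini-Hochberg) run over all 17773 genes tested and the threshold was 0.05. The standard error is the log2 change divided by the root of F. Levels are TMM-normalised CPM, divided by the deposited length for levels per kb; that length equals the exon union of GENCODE M21 for 21 of 39 members. Pairs of libraries of a group differed well beyond sampling noise, with a chi-square per degree of freedom of 10.1 to 211 over 60 pairs. The edgeR steps were tested on simulated counts. Named genes were those required by a rule: both transcription factors, the 10 members with the largest change among those called in each sex, the largest and smallest change in males per role, members called between the sexes in vehicle mice, and up to 6 called genes of the further lysosomal list per sex, of which 1 is not reported here; other names were added by group. The members, lists and tests were chosen with earlier results of these data known. Alternatives were DESeq2 1.42.0, limma-voom (limma 3.58.1), RLE and upper-quartile scaling, no filter, fits of the compared groups alone, the title numbers as a block, and leaving out each library. Promoters came from RefSeq (GRCm38.p6).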

Additional observations from a re-analysis of the deposited data

Results flagged for a closer look

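In each group of 6 libraries the highest and lowest value of every member was compared with the others: 7 of 156 groups held a sample far from the rest (a gap to the nearest value above Dixon's 95% limit for its range), and chance flags about 1 in 20. In PBS male 1-3, Atp6v0e2 was at 31.4 CPM (others 35.9 to 38.2), Lamp1 at 343 CPM (others 386 to 403), Ctsh at 20.8 CPM (others 9.99 to 13.5) and Lipa at 11.9 CPM (others 8.9 to 9.47). Lamp2 was at 110 CPM in PBS male 2-5, against 120 to 124 in the other PBS males. Ctsz was at 34.1 CPM in LLC1 male 1-5, against 25.3 to 26.6 in the other LLC1 males. Atp6v1h was at 18.2 CPM in LLC1 female 1-4, against 20.2 to 21.1 in the other LLC1 females.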

How the results depend on the processing

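DESeq2, limma-voom and RLE scaling kept all 17 male and all 5 female calls among the members. Upper-quartile scaling lost Hexa in males. Without the filter, Hexa and Atp6ap1 lost their calls in both sexes, leaving 1 hydrolase higher in females. In fits of the 2 compared groups alone, Atp6ap1 lost its male call, and in females 1 V-ATPase gene and 4 hydrolases were higher. Such fits also added Lamp1 in females, and Atp6v1g1, Atp6v1b2 and Gaa between the sexes in vehicle mice. The interaction gave 45 genes with DESeq2.

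Pairing by the full title number was not seen: the correlations of deviations within the 6 shared numbers were -0.231 to 0.066. Of these LLC1 libraries, 0 of 6 correlated best with their own number. This check covers only shared full numbers and cannot exclude other structure, such as one carried by the first number. With the full number as a replicate block, 3607 genes were called in males, 480 in females and 269 between the sexes in vehicle mice. That block left 3 V-ATPase genes higher in males and 0 hydrolases higher in females. Of the 17 male member calls, 12 stayed and Ctsz was gained. Lost in males were Atp6v1h (adjusted p = 0.0529, edgeR), Atp6v0d1, Atp6v0c, Atp6ap2 and Atp6ap1. All 5 female member calls and the 2 vehicle calls, Npc1 and Npc2, were lost. With the first number as a block the interaction gave 6 genes.

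Leaving out each library in turn gave 919 to 2283 genes in females, 659 to 1476 between the sexes in vehicle mice, 0 to 7 for the interaction, and 1 to 4 hydrolases higher in females; the lows were without LLC1 female 2-3 (919) and PBS male 2-5 (659). V-ATPase genes higher in males numbered 7 to 8 and hydrolases 4 to 6.

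Changes near 0 reversed sign. In males, upper-quartile scaling gave Atp6v0b -0.023, Atp6v1e1 -0.021, Ctsf -0.029, Tpp1 -0.005 and Npc2 -0.006; the full-number block gave Atp6v0b -0.01, Atp6v1e1 -0.047 and Ctsf -0.007, and the first-number block Atp6v0b -0.014 and Ctsf -0.003. In females the full-number block gave Atp6v0c -0.022, Atp6v0e -0.001 and Atp6v1b2 -0.001. Leaving out 1 library gave Atp6v0b -0.001 to 0.043 in males, Atp6v1e1 -0.016 to 0.052 in males, Ctsf -0.03 to 0.043 in males, Tpp1 -0.009 to 0.064 in males, Atp6v1a -0.081 to 0.045 in females and Gla -0.093 to 0.025 for the interaction. The cause of these reversals was not tested. Gla and Glb1 had the fewest counts of the members.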
